A study of Canis lupus familiaris with 12 samples.

Results

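Mitral valve tissue of dogs with the degenerative form of mitral valve disease (DMVD) was compared with mitral valve tissue of control dogs by RNA sequencing, gene by gene. All genes that the authors marked as tested in their valve table entered the comparison, which was 14810 of 24223 listed genes. The DMVD group held 3 dogs, a Pomeranian of 9 years and Beagles of 16 and 17 years. The control group held 3 dogs without the diagnosis, a Beagle of 8 years and a pair of Hound mixes of 3 years. These control dogs also gave left ventricle samples, the Pomeranian gave one of the DMVD ventricle samples, and the series holds 12 libraries in all. Diagnosis, age and breed ran together in this design, so their parts in any difference cannot be told apart.

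Each group is represented by one value per gene in FPKM, fragments scaled to gene length and library size, and every log2 value below is DMVD over control. The error after ± is the standard error implied by the authors' test statistic on the group values. Variation among the dogs of a group and the sequencing depth of their libraries are unknown, since only group values were used. In whole tissue, fewer cells of a type and less RNA per cell cannot be told apart.

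A mitral leaflet is built by interstitial cells, fibroblast-like cells that make layers of collagen, proteoglycan and elastic fibre, and is covered by endothelium. Its base is anchored at the annulus beside the left atrium, and its free edge is held by chordae that rise from the papillary muscles of the left ventricle. In DMVD the leaflets become thick and soft, the proteoglycan-rich layer widens, and interstitial cells are known to take on contractile, myofibroblast-like features.

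The disease valves had much lower levels of a few ventricular muscle genes, led by MYL3, and higher levels of single genes such as the endothelial SELP, the innate immune PTX3 and the alpha-globin gene HBA. These rises were not particular to the valve. In ventricle the DMVD and control values were 1.48 and 0.173 FPKM for SELP, 69.8 and 1.19 for PTX3, and 3559 and 61.3 for HBA. At an adjusted p under 0.05 (two-sided p-values of the authors, adjusted by Benjamini-Hochberg across all tested genes), 62 genes passed, 0.419% of those tested. Of these, 46 were higher (0.311%) and 16 lower (0.108%) in DMVD, so 74.2% of the calls were higher. With the values scaled to genes that are not rich in ventricle, which moves every log2 value down by 0.22, 26 genes were higher and 25 lower. In that setting 20 of the 46 rises no longer passed, with adjusted p from 0.0531 to 0.139 on the authors' errors, and 9 more genes were lower. Part of the shift came from small RNA rows. Without them, an alternative chosen after seeing the data, the shift was 0.10, with 36 genes higher and 20 lower. The word scaled below refers to the shift of 0.22. Over all tested genes the median log2 value was 0.05 and 54.9% had the higher value in DMVD. The smallest change among the calls was 1.86 on the log2 scale, and 622 genes (4.20%) had an unadjusted p under 0.05 in the authors' deposited table.

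**Figure D1:**
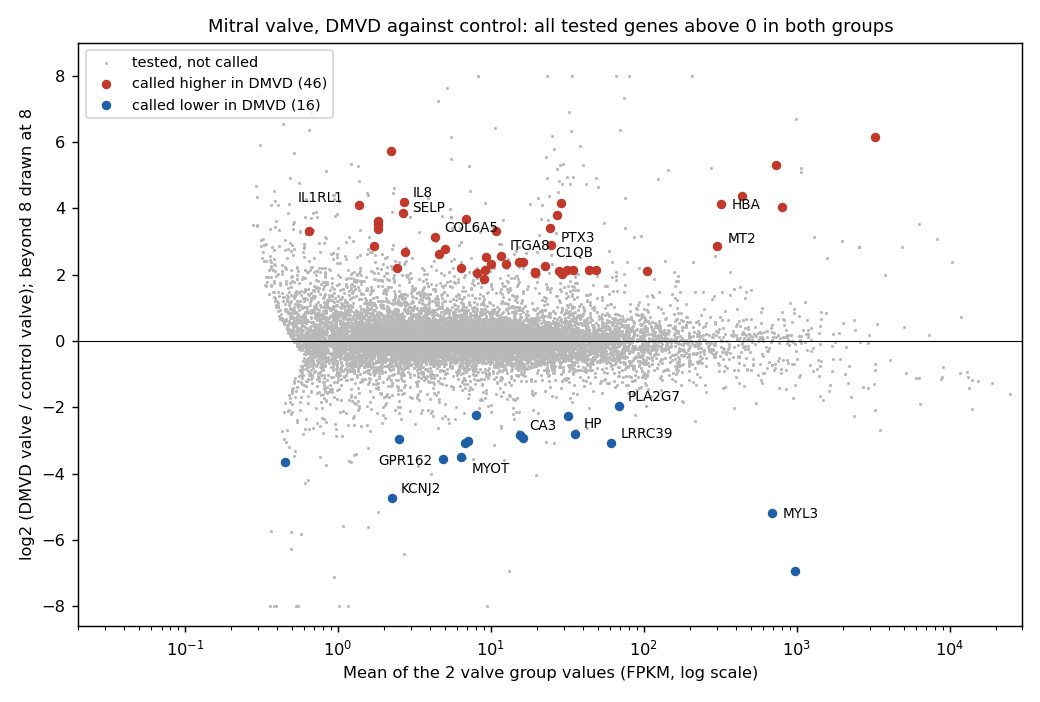
Each point is a tested gene above 0 in both valve groups, placed by the mean of the group values (FPKM, log axis) and by log2 of DMVD over control. The 46 red points passed higher and the 16 blue points passed lower, and MYL3 and an unlabelled row below it stand apart to the lower right with log2 values of -5.19 and -6.93.

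The labelled tissue was checked first, because heart muscle genes were abundant in every valve group. A list of 45 sarcomere and muscle structure genes, the contractile apparatus of heart muscle, summed to 21040 FPKM over its 39 listed rows in the DMVD valves and to 41352 FPKM in the control valves. That was 2.72% of the FPKM of all rows in the DMVD valves and 4.60% in the control valves. Mitochondrially encoded and small RNA rows took unequal shares of the valve tables (22.3% and 12.1% of the FPKM in DMVD, 39.2% and 2.35% in control), so the share was also taken without them. It was then 4.15% in the DMVD valves, 7.88% in the control valves, 9.88% in the DMVD ventricles and 10.7% in the control ventricles, where CKM and MYH7 are listed at 0. The control valves therefore carried 1.90 times the sarcomere share of the DMVD valves. Valve genes were present as well: the proteoglycan decorin gene DCN had 1115 FPKM in DMVD and 1011 in control, and the lumican gene LUM had 620 and 575.

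Among the 38 tested sarcomere genes there was 1 fall and no rise, while 37 of the 38 had the lower value in DMVD. Their median was -0.91 against 0.05 for all genes. The gene that fell was MYL3, the essential myosin light chain of ventricular and slow muscle (ENSCAFG00000013618, chromosome 20, 41941315 to 41947260, CanFam3.1). MYL3 had 36.6 FPKM in the DMVD valves and 1335 in the control valves, beside 4451 and 4676 in the DMVD and control ventricles. Its change was -5.19 ± 0.68 (adjusted p = 2.64e-10 by the authors' test), a 36.5-fold lower value. The other sarcomere genes had far smaller differences and wide errors. The thin filament gene TNNT2, cardiac troponin T, had 1846 FPKM against 4523 (-1.29 ± 2.52), and TNNI3, cardiac troponin I, had 683 against 2143 (-1.65 ± 1.12). The oxygen-binding myoglobin gene MB had 1507 against 3912 (-1.38 ± 1.21). ACTC1, the cardiac alpha-actin, was the exception with a higher DMVD value of 3164 against 2785 FPKM (0.18 ± 2.13).

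The largest fall of all belonged to a row listed only by a UniProt name, Q8WN71_CANFA (ENSCAFG00000008524, chromosome 26, 8623641 to 8632895, CanFam3.1). Its value was 15.9 FPKM in the DMVD valves against 1943 in the control valves, with 3754 and 6223 in the DMVD and control ventricles. It fell by 6.93 ± 0.97 on the log2 scale (adjusted p = 5.87e-09 from the authors' p-values). The row lies between CCDC63 and CUX2, and the RefSeq annotation of assembly UU_Cfam_GSD_1.0 places 1 gene between those neighbours, MYL2, the regulatory myosin light chain of the ventricle. No row of the table carries the symbol MYL2.

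A further 10 of the 16 falls were ventricle-rich, a term used here for genes whose control ventricle value was at least 2 times the geometric mean of the valve groups. The DMVD value enters that mean, so a fall itself moves a gene towards this class, and 7 of the 12 ventricle-rich falls reached 2 times the control valve value alone. KCNJ2, the inward rectifier potassium channel that sets the resting potential of ventricular myocytes, had 0.162 FPKM against 4.34 (-4.74 ± 1.22, adjusted p = 0.0300 from the authors' p-values). DPP6, an accessory subunit of transient outward potassium channels, had 0.565 against 4.42 FPKM (-2.97 ± 0.67). The M-band gene LRRC39 had 12.9 against 110 FPKM (-3.09 ± 0.67). MYOT, which encodes the Z-disc protein myotilin, had 1.04 against 11.7 FPKM (-3.49 ± 0.67, adjusted p = 0.000298 by the authors' test). The muscle ubiquitin ligase adaptor ASB18 fell from 12.1 to 1.44 FPKM (-3.07 ± 0.66), and the orphan receptor gene GPR162 from 8.97 to 0.755 FPKM (-3.57 ± 0.71). PLA2G7, an enzyme that inactivates platelet-activating factor, fell from 110 to 28.0 FPKM (-1.97 ± 0.50). TDRD1 fell at low levels, from 0.836 to 0.0667 FPKM (-3.65 ± 0.93), or by -0.78 with 1 FPKM added to each group. An unnamed row between SCN9A and B3GALT1 on chromosome 36 (-2.24 ± 0.52) fell too.

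**Figure D2:**
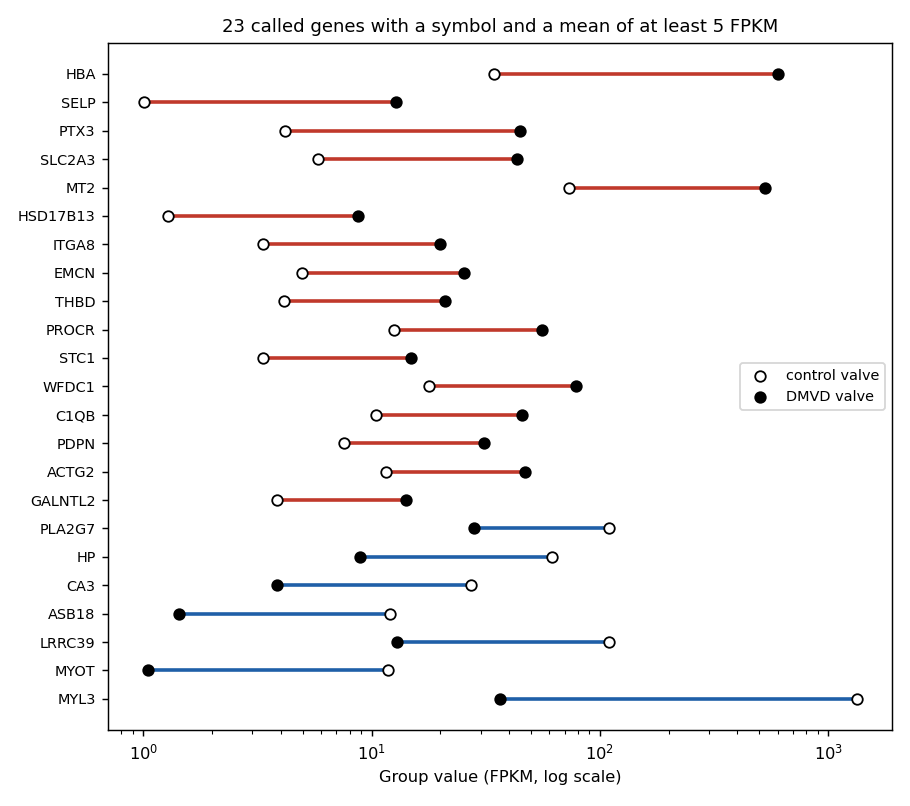
Group values in FPKM on a log axis for 23 genes that passed, carry a symbol and have a mean of at least 5 FPKM; open circles are control valves, filled circles DMVD valves. The 16 red lines are rises and the 7 blue lines falls, from HBA at the top (34.4 to 604 FPKM) to MYL3 at the bottom (1335 to 36.6 FPKM).

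In their group values, genes of atrial muscle did not follow those of the ventricle. Of 8 tested atrial muscle genes none passed and their median was 0.20, which became -0.02 when scaled to genes that are not ventricle-rich. NPPA, the atrial natriuretic peptide gene, had 2878 FPKM in the DMVD valves and 2984 in the control valves (-0.05 ± 1.93), but 48.0 and 12.4 in the DMVD and control ventricles. MYL4, the atrial essential light chain, had 1631 and 1792 FPKM in the valves (-0.14 ± 1.67) and 106 and 33.5 in the ventricles. KCNJ3, a subunit of the atrial acetylcholine-gated potassium channel, had 54.8 and 47.6 FPKM in the valves (0.20 ± 0.60). The atrial list held 1.13% of the FPKM outside mitochondrial and small RNA rows in the DMVD valves and 1.05% in the control valves, against 0.0378% and 0.0250% in the ventricles. The valve groups thus lay close together in NPPA, MYL4 and KCNJ3 and far apart in MYL3. The errors of NPPA and MYL4 were wide enough to reach the sarcomere median of -0.91. Other members of the atrial list differed more: PAM, a peptide-amidating enzyme, had 785 against 393 FPKM and the nuclear receptor gene NR2F2 had 12.8 against 6.90 (0.89 ± 0.61), neither passing.

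The 4 ventricle-rich members of a cardiac transcription factor list had lower values in the DMVD valves but did not pass. IRX4, a ventricle-restricted homeobox gene, had 0.0135 FPKM against 1.86 (-7.11 ± 2.74, adjusted p = 0.552 from the authors' p-values). HAND1, a factor of the left ventricle, had 2.43 against 10.8 FPKM (-2.16 ± 0.65), and IRX3 had 0.115 against 1.54 FPKM (-3.75 ± 1.11). The difference was smaller for HEY2, with 5.68 against 10.9 FPKM (-0.94 ± 0.78). TBX5, active in both atrium and left ventricle, had 47.3 against 36.5 FPKM (0.37 ± 0.49). Of the 13 tested cardiac transcription factors none passed and the median was -0.19.

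**Figure D3:**
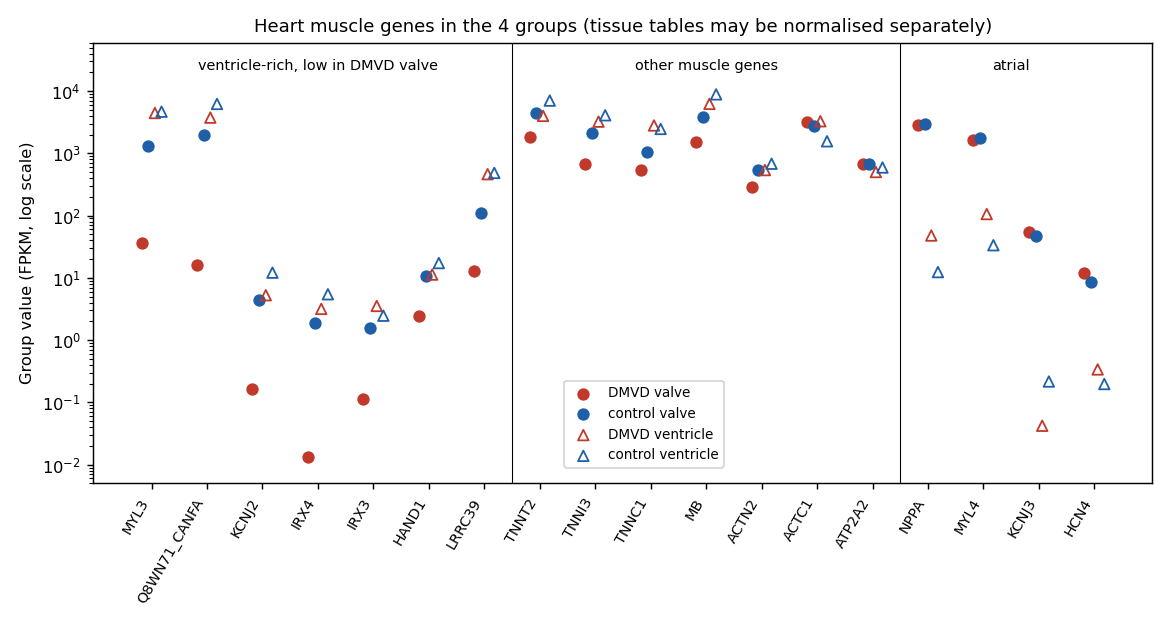
FPKM on a log axis of heart muscle genes in the 4 groups; filled circles are valves, open triangles ventricles, red is DMVD and blue is control. In the first set, chosen after its values were seen, the DMVD valve lies lowest of the 4 groups for every gene, as with MYL3 at 36.6 FPKM; in the atrial set, as with NPPA at 2878 and 2984 FPKM, the valve groups lie together and above the ventricles.

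Genes of aerobic metabolism had lower values throughout, with no gene passing. All 22 tested nuclear subunits of oxidative phosphorylation had the lower value in DMVD (median -0.87), led by UQCRC1 of complex III with 95.5 against 210 FPKM (-1.14 ± 0.50). All 15 tested genes of the tricarboxylic acid cycle were lower in value (median -0.71), as were 20 of 21 genes of fatty acid oxidation (median -0.69), among them the fatty acyl-CoA ligase ACSL1 with 22.8 against 58.4 FPKM (-1.36 ± 0.47). These lists were rich in ventricle, with median control ventricle values over the valve of 1.40, 1.03 and 1.01 on the log2 scale. Of 16 calcium cycling and excitation genes 1 fell, KCNJ2, and the median was -0.46.

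Genes were then grouped by how strongly they are expressed in ventricle. The ventricle ratio uses both valve groups, so the change of a gene helps to place it, and the values below are a description. Among genes of at least 1 FPKM in the mean, the 1258 genes more than 4-fold lower in control ventricle than in the mean of the valve groups had a median of 0.53, with 29 rises and 1 fall. The median was 0.33 for the next 2067 genes, 0.07 for the 6044 genes just below equal levels and -0.25 for the 3000 just above. It was -0.73 for 568 genes that were 2- to 4-fold higher in ventricle, -1.53 for 54 genes at 4- to 8-fold, and -2.71 for the 23 genes at 8-fold or more, with no rise and 6 falls among those 23 (26.1% called). Restricted to a mean of 5 FPKM or more, the last range held 15 genes and its median was -1.59. In all, the 730 tested ventricle-rich genes had 0 rises and 12 falls at the adjusted threshold, and 0 higher and 137 lower genes at an unadjusted p under 0.05. The 3891 genes at least 2-fold lower in control ventricle than in the mean of the valve groups, called valve-rich below, had a median of 0.39, 39 rises and 4 falls. Of these 39 rises 4 had a higher value in control ventricle than in control valve, among them HBA, IL8 and IL1RL1. With the ventricle set against the control valve alone, the medians of the ranges were 0.30, 0.27, 0.06, -0.21 and -0.57 up to a 4-fold higher ventricle value, but 0.26 for the 25 genes at 4- to 8-fold and 2.99 for the 12 genes at 8-fold or more. The step down to that point was therefore seen with either ratio, and the low medians of the highest ranges were not. With the control valve alone, ventricle-rich genes had 3 rises and 7 falls and valve-rich genes 29 rises and 4 falls. The part of the unequal heart muscle share in these differences was not tested.

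**Figure D4:**
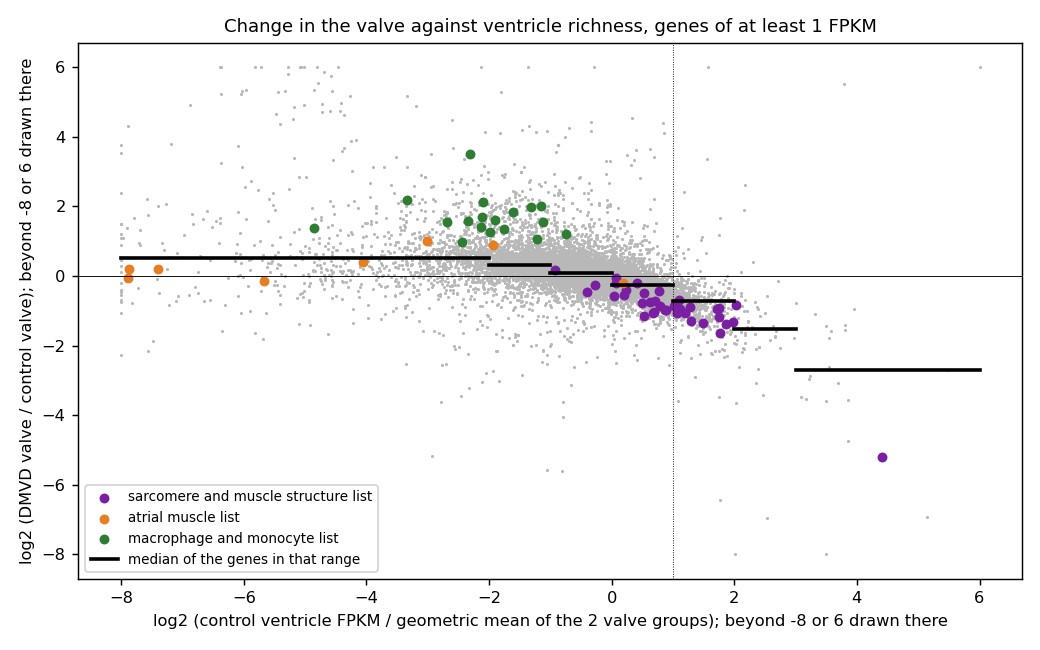
Each grey point is a gene of at least 1 FPKM, with log2 of control ventricle over valve on the horizontal axis and log2 of DMVD over control valve on the vertical axis; black bars are medians of the genes in each range. The ratio uses both valve groups, so a change helps to place its gene; the bars step down from 0.53 at the left to -2.71 at the right, with sarcomere genes (purple) below 0 but for ACTC1, atrial genes (orange) from -0.19 upwards and macrophage genes (green) above it.

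The 4 falls among valve-rich genes were of a different kind. HP, which encodes the haemoglobin-binding plasma protein haptoglobin, had 8.92 FPKM in DMVD against 62.0 in control (ENSCAFG00000020220, chromosome 5, 77795316 to 77799904, CanFam3.1), a change of -2.80 ± 0.54 (adjusted p = 0.000361 by the authors' test). CA3, a carbonic anhydrase of fat and skeletal muscle, had 3.83 against 27.3 FPKM (-2.83 ± 0.64). The other falls were rows with untranslated UniProt names. Q95J95_CANFA had 10.9 against 52.5 FPKM (-2.26 ± 0.60), and its neighbours RFC4 and ST6GAL1 enclose ADIPOQ, the gene of the fat cell hormone adiponectin, in RefSeq. Q95159_CANFA had 1.55 against 12.5 FPKM (-3.01 ± 0.66), and its neighbours CAPN9 and PGBD5 enclose AGT, the angiotensinogen gene.

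Fat cell markers were lower in value with these falls, though none passed. Of 10 tested adipocyte markers 8 had the lower DMVD value and 7 reached an unadjusted p under 0.05 in that direction (1.47% of all tested genes did so), with a median of -1.75. The lipid droplet coat gene PLIN1 had 5.64 FPKM against 24.8 (-2.13 ± 0.59, adjusted p = 0.0622 by the authors' test), and the lipid droplet gene CIDEA had 3.29 against 13.4 (-2.02 ± 0.59). When scaled to genes that are not ventricle-rich, PLIN1 and CIDEA passed as lower. PPARG, the master regulator of fat cells, had 2.76 against 6.58 FPKM (-1.25 ± 0.61). Resistin (RETN), which is made by myeloid cells as well, ran the other way with 31.8 against 7.61 FPKM (2.06 ± 0.89). The summed level of the list was 139 FPKM in DMVD and 163 in control, with CFD as a large part at 77.9 and 50.2 FPKM. The part of fat tissue in the falls of HP and CA3 was not tested.

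Several rises fell on genes of endothelium and coagulation, gathered here after their values were seen. SELP, the gene of P-selectin that captures leukocytes on activated endothelium and platelets, had 12.8 FPKM in DMVD and 1.01 in control (ENSCAFG00000015180, chromosome 7, 28956363 to 28997731, CanFam3.1), a rise of 3.67 ± 0.62 (adjusted p = 8.61e-06 from the authors' p-values). EMCN, a sialomucin of venous and capillary endothelium, had 25.5 against 4.93 FPKM (2.37 ± 0.53, adjusted p = 0.00574 from the authors' p-values). Thrombomodulin and the endothelial protein C receptor act together in activating the anticoagulant protein C. THBD, the thrombomodulin gene, rose from 4.14 to 20.9 FPKM (2.34 ± 0.54) and PROCR, the receptor gene, from 12.6 to 55.9 FPKM (2.15 ± 0.55). The row between IKBKB and AP3M2 on chromosome 16, an interval that holds PLAT, the tissue plasminogen activator gene, in RefSeq, rose from 11.6 to 51.4 FPKM (2.15 ± 0.54). F5, coagulation factor V, rose at low levels, from 0.118 to 1.18 FPKM (3.32 ± 0.83), and shares its listed locus with another gene. PROCR, F5 and the chromosome 16 row no longer passed when scaled.

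Of 25 tested endothelial markers SELP and EMCN rose and 23 did not pass, while 23 of the 25 had the higher DMVD value and 9 reached an unadjusted p under 0.05, all of them higher (2.73% of all tested genes did so). The list median was 0.99. The adhesion gene ICAM1 had 22.4 against 7.05 FPKM (1.67 ± 0.47, adjusted p = 0.0715 by the authors' test), the angiopoietin receptor TEK 10.9 against 4.19 (1.39 ± 0.47) and the endothelial matrix gene MMRN2 19.1 against 6.80 (1.49 ± 0.54). Defining junction and lineage genes were closer: CDH5 (VE-cadherin) had 12.5 against 9.11 FPKM (0.45 ± 0.53) and ERG 3.50 against 2.43 (0.53 ± 0.69). Of 7 lymphatic endothelial markers 2 rose and 4 were higher in value, with a median of 0.51. RELN, the secreted glycoprotein reelin, had 3.98 against 0.861 FPKM (2.21 ± 0.51), and PDPN, the membrane mucin podoplanin, had 31.2 against 7.57 FPKM (2.04 ± 0.48). The hyaluronan receptor LYVE1, also on some macrophages, had 23.5 against 6.82 FPKM (1.78 ± 0.49). The lymphatic chemokine CCL21 lay the other way, with a log2 value of -2.61 ± 1.86. The lineage-defining genes PROX1 (-0.36 ± 0.66 on the log2 scale) and FLT4, with 2.83 against 3.48 FPKM (-0.30 ± 0.52), also had the lower DMVD value.

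Inflammatory genes rose in a small number and were higher in value as a group. A list of 30 tested cytokine and chemokine genes also held the receptor gene IL1RL1 and the pentraxin gene PTX3. In it IL8, IL1RL1 and PTX3 rose and the other 27 did not pass, with a median of 1.20. PTX3, the soluble pattern-recognition protein pentraxin 3, had 44.5 FPKM in DMVD and 4.19 in control (ENSCAFG00000008902, chromosome 23, 50780925 to 51002465, a span shared with another gene), a rise of 3.41 ± 0.76 (adjusted p = 0.00570 by the authors' test). IL8, the neutrophil chemokine, had 5.12 against 0.280 FPKM (4.19 ± 0.95), and the interleukin-33 receptor gene IL1RL1 had 2.61 against 0.152 FPKM (a log2 value of 4.10). With 1 FPKM added to each group these became 3.13, 2.26 and 1.65, the last pair from control values under 1 FPKM. The row Q8SPQ9_CANFA had 19.7 against 1.97 FPKM (3.32 ± 0.53, adjusted p = 1.56e-06 from the authors' p-values). It lies between TPR and PLA2G4A, an interval that holds ODR4, PDC and the inducible cyclooxygenase gene PTGS2 in RefSeq. CSF2RB, the shared receptor chain for GM-CSF, interleukin-3 and interleukin-5, rose from 0.730 to 4.72 FPKM (2.69 ± 0.62). The monocyte attractant CCL2 had 87.8 against 28.0 FPKM (1.65 ± 0.50) and did not pass.

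Macrophage genes lay on one side. All 18 tested macrophage and monocyte markers had the higher value in DMVD, as did 54.9% of all tested genes. The median of these markers was 1.56 and the lowest value 0.96. In the authors' test 13 markers had an unadjusted p under 0.05, all of them higher (2.73% of all tested genes did so). Their summed level was 368 FPKM in DMVD and 123 in control. Only C1QB, a chain of the complement starter C1q, passed, with 45.4 against 10.4 FPKM (2.12 ± 0.55, adjusted p = 0.0322 by the authors' test), and it missed the threshold when scaled. Its partners C1QC, with 70.7 against 22.0 FPKM (1.68 ± 0.54), and C1QA, with 60.8 against 23.0 (1.40 ± 0.54), did not pass. The scavenger receptor CD163, a marker of tissue macrophages, had 20.7 against 5.20 FPKM (1.99 ± 0.54, adjusted p = 0.0535 from the authors' p-values). All 13 antigen presentation genes were higher in value (median 1.13), led by the invariant chain gene CD74 with 257 against 60.4 FPKM (2.09 ± 0.63). Of 19 complement genes 1 rose, C1QB, with 15 higher in value and a median of 0.80.

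Neutrophil genes were higher in value, with 1 call. Of 7 tested neutrophil markers S100A9, a calcium-binding protein of neutrophils and monocytes, rose from 0.273 to 3.35 FPKM (3.62 ± 0.97, adjusted p = 0.0466 by the authors' test), or 1.77 with 1 FPKM added, and missed the threshold when scaled. All 7 were higher in value, with a median of 1.86, though PGLYRP1 was nearly equal at 0.919 against 0.918 FPKM. Only 4 of the 7 reached a mean of 1 FPKM. The G-CSF receptor CSF3R had 0.939 against 0.0819 FPKM (3.52 ± 1.06), or 0.84 with 1 FPKM added. The most abundant was BPI, a bactericidal granule protein gene, with 51.4 against 14.6 FPKM (1.82 ± 0.56), which did not pass.

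A globin gene and 2 further rows rose as well. HBA, the alpha-globin gene, had 604 FPKM in the DMVD valves and 34.4 in the control valves (ENSCAFG00000029904, chromosome 6, 40326459 to 40329857, CanFam3.1), a rise of 4.13 ± 0.65 (adjusted p = 5.70e-07 from the authors' p-values). A row without a name beside it had 54.5 against 3.06 FPKM (4.16 ± 0.59). It lies between LUC7L and HBM, an interval that holds 3 genes in RefSeq, among them HBQ1. A further row, Q1ERY9_CANFA, lies between OR52A1 and OR51B5 on chromosome 21, an interval that holds 14 genes in RefSeq. Q1ERY9_CANFA had 841 against 40.1 FPKM in the valves (4.39 ± 0.82) and 14014 against 329 in the ventricles. Which gene the Q1ERY9_CANFA row stands for was not determined. Of 7 tested erythroid genes only HBA rose, the median was 0.23, and the haem synthesis gene ALAS2 had 1.40 against 1.27 FPKM (0.14 ± 0.58). The summed erythroid level was 647 FPKM in DMVD and 100 in control, and without HBA it was 42.4 and 66.0. Most of that remainder was GYPC, with 31.6 against 58.0 FPKM (-0.87 ± 0.48). GYPC was the only tested member with the lower DMVD value. The other 6 had the higher value, among them HBM with 1.84 against 0 FPKM, which did not pass. The part of retained blood in the immune and endothelial rises was not tested. Of 5 tested T and NK cell markers none passed, and CD3E, a chain of the T cell receptor complex, had 1.15 against 0.463 FPKM.

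Some of the rises fell on matrix, adhesion and contractile genes. COL6A5, a chain of the microfibrillar collagen VI, had 7.74 FPKM in DMVD and 0.881 in control (ENSCAFG00000006046, chromosome 23, 27596435 to 27726503, a span shared with another gene), a rise of 3.14 ± 0.58 (adjusted p = 0.000128 by the authors' test). ITGA8, the integrin chain that binds nephronectin and other RGD proteins, had 19.9 against 3.35 FPKM (2.57 ± 0.62). The tight junction gene CLDN1 rose from 1.28 to 7.87 FPKM (2.62 ± 0.58). WFDC1, a secreted protein with a protease inhibitor fold, rose from 17.9 to 78.8 FPKM (2.14 ± 0.51). ACTG2, the smooth muscle gamma-actin, rose from 11.6 to 47.1 FPKM (2.03 ± 0.50, adjusted p = 0.0213 from the authors' p-values), and the glycoprotein hormone gene STC1 from 3.35 to 14.9 FPKM (2.15 ± 0.55). GALNTL2, an enzyme that starts mucin-type glycosylation, rose from 3.86 to 14.1 FPKM (1.86 ± 0.50). ACTG2, STC1 and GALNTL2 missed the threshold when scaled.

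Of 17 smooth muscle and myofibroblast genes ACTG2 rose and 16 did not pass, and the median was 0.37, beside 0.05 for all genes. ACTA2, the smooth muscle alpha-actin that marks activated interstitial cells, had 74.8 against 31.6 FPKM (1.24 ± 0.54, adjusted p = 0.821 by the authors' test). The smooth muscle myosin gene MYH11 had 16.4 against 7.13 FPKM (1.20 ± 0.60) and the actin-binding gene TAGLN 1572 against 699 (1.17 ± 0.77). Of 18 interstitial cell and fibroblast markers none passed and 15 had the higher value, with a median of 0.31.

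Structural matrix lists had no member that passed, beside 0.419% of all tested genes. The collagen gene COL6A5, which rose, was not a member of these lists. The 13 fibrillar and network collagens had a median of 0.29, with COL1A1 at 201 against 127 FPKM (0.66 ± 1.06). Of 25 proteoglycan and hyaluronan genes 22 had the higher value, with a median of 0.39. VCAN, the large proteoglycan versican, had 138 against 74.3 FPKM (0.89 ± 1.14), while ACAN, aggrecan, had 24.9 against 41.5 (-0.74 ± 0.64). The hyaluronan synthase HAS2 had 3.64 against 3.04 FPKM (0.26 ± 0.49). The 17 small leucine-rich proteoglycans, among the most abundant valve transcripts, had a median of 0.11, or -0.11 when scaled; their member BGN, biglycan, had 933 against 586 FPKM (0.67 ± 1.24).

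Elastic fibre genes were higher in value in 15 of 16 cases (median 0.53). The elastin gene ELN had 60.1 against 25.3 FPKM (1.25 ± 0.48, adjusted p = 0.555 from the authors' p-values), and fibrillin-2, FBN2, was the exception with a log2 value of -0.93 ± 0.46. Of 19 collagen processing and cross-linking genes 18 were higher in value (median 0.56), including LOX, lysyl oxidase, with 29.6 against 15.5 FPKM (0.93 ± 0.49). The 22 matricellular genes had a median of 0.51. Thrombospondin-1, THBS1, had 48.5 against 16.9 FPKM (1.52 ± 0.55) and periostin, POSTN, 685 against 245 (1.49 ± 2.52), whereas the cartilage intermediate layer gene CILP had 4.21 against 8.48 (-1.01 ± 0.48).

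Matrix-degrading enzymes were mixed, and none of 20 metalloproteases and inhibitors passed (median 0.17, or -0.05 when scaled). The versican- and aggrecan-cleaving protease ADAMTS4 had 10.9 against 1.46 FPKM (2.90 ± 0.89) and ADAMTS5 1.83 against 0.604 (1.60 ± 0.80), while stromelysin-1, MMP3, had 4.67 against 13.9 (-1.57 ± 0.62). Of 15 cathepsins and serine proteases none passed and 13 were higher in value; the lysosomal protease CTSS of myeloid cells had 45.1 against 14.7 FPKM (1.62 ± 0.54).

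Signalling genes of valve disease were then read by their roles. Among TGF-beta and activin genes none of 21 passed, 19 were higher in value and the median was 0.48. The activin subunit INHBB had 12.5 against 2.20 FPKM (2.51 ± 0.81) and the receptor TGFBR2 49.5 against 20.7 (1.26 ± 0.50). None of 27 BMP signalling genes passed (median 0.29), with the ligands BMP4 at 28.3 against 14.9 FPKM (0.92 ± 0.48) and BMP2 at 6.16 against 4.93 (0.32 ± 0.47). Of 30 Wnt signalling genes none passed. RSPO2, a secreted amplifier of Wnt signalling, had 1.45 against 6.95 FPKM (-2.27 ± 0.62, adjusted p = 0.0562 from the authors' p-values) and passed as lower when scaled, and the ligand WNT9B had 4.37 against 0.197 FPKM (4.47 ± 1.28). None of the 8 tested serotonin signalling genes had an unadjusted p under 0.05, and the receptor HTR7 had 1.88 against 0.895 FPKM (1.07 ± 0.70). In the endothelin, renin-angiotensin and natriuretic peptide list none of 12 passed. The vasoconstrictor gene EDN1 had 7.20 against 2.13 FPKM (1.76 ± 0.60), and its receptors EDNRA and EDNRB had 0.35 ± 0.49 and 0.55 ± 0.49.

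A set of 37 genes with a place in research on this disease was chosen for the comparison, and 23 of them had a row under their symbol. Of the 20 that were tested none passed, beside 0.419% of all genes. The cartilage and valve transcription factor SOX9 had 31.5 against 30.7 FPKM (0.04 ± 0.49), and NPPB, the B-type natriuretic peptide, had 1776 against 1120 (0.66 ± 1.06). Transcription factors of valve development and mesenchymal transition had a median of 0.15, or -0.06 when scaled, and none of 24 passed. SNAI1, which drives the loss of epithelial character, had 15.3 against 5.14 FPKM (1.57 ± 0.58).

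**Figure D5:**
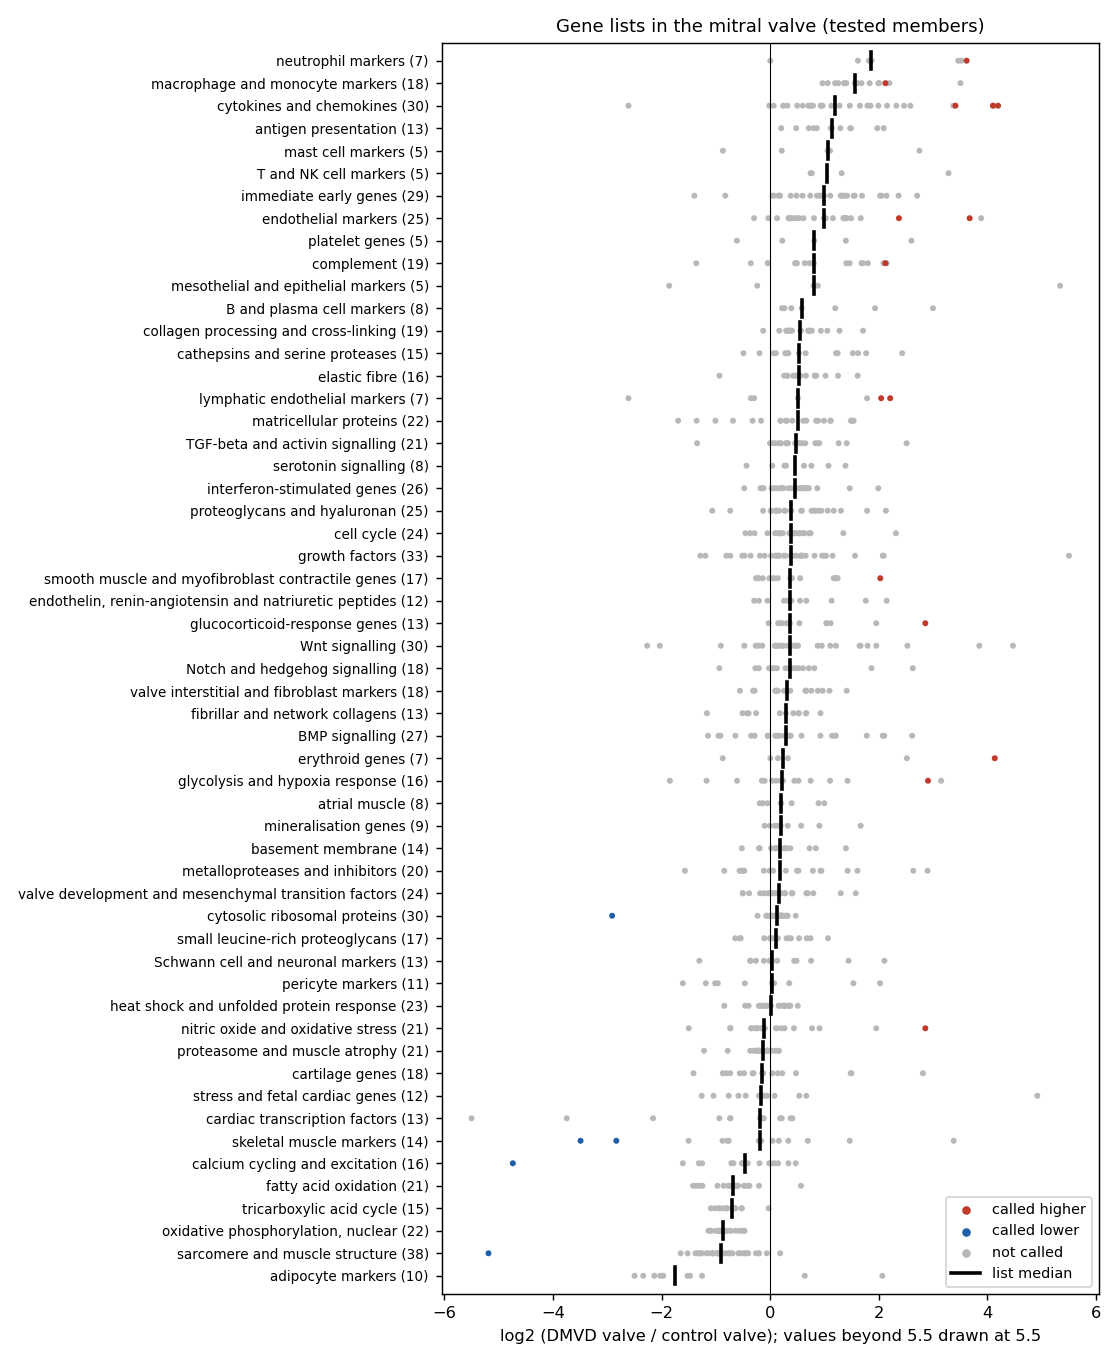
Log2 of DMVD over control valve for the tested members (points) of each gene list with at least 5 tested members, sorted by list median (black bar); red and blue points passed higher and lower. Immune lists stand at the top, from a neutrophil median of 1.86 and a macrophage median of 1.56, and adipocyte (-1.75) and sarcomere (-0.91) lists at the bottom.

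Stress-response genes added 2 rises. MT2, a metallothionein that binds zinc and copper and responds to glucocorticoids, had 531 FPKM in DMVD and 73.3 in control (2.86 ± 0.68). SLC2A3, a high-affinity glucose transporter, had 43.5 against 5.81 FPKM (2.90 ± 0.78, adjusted p = 0.0476 by the authors' test) and missed the threshold when scaled. The hypoxia- and glucocorticoid-responsive gene DDIT4 had 156 against 17.6 FPKM (3.15 ± 1.02), while ENO3, the muscle enolase, had 78.3 against 282 (-1.85 ± 0.52). Of 29 immediate early genes none passed, 27 were higher in value and the median was 0.99. FOSL2 had 17.2 against 3.35 FPKM (2.36 ± 0.66, adjusted p = 0.0622 from the authors' p-values), but EGR1 had 36.2 against 35.1 (0.04 ± 0.63) and DUSP1 54.0 against 48.8 (0.15 ± 0.61).

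The remaining rises with a symbol were HSD17B13, a lipid droplet dehydrogenase, at 8.73 against 1.29 FPKM (2.76 ± 0.71), and 3 genes of low level. SLCO4A1, an organic anion transporter, had 3.37 against 0.298 FPKM (3.50 ± 0.86), STOX1 3.01 against 0.416 (2.85 ± 0.76) and PLSCR5, of the phospholipid scramblase family, 3.34 against 0.318 (3.39 ± 0.70). HSD17B13 and STOX1 missed the threshold when scaled. Of the 62 genes that passed, 39 carried a unique symbol and 9 overlapped a second gene in their listed locus. Among those 9 were PTX3, COL6A5, F5, SLC2A3, RELN, PLA2G7, GALNTL2 and the Q1ERY9_CANFA row. The calls under 5 FPKM in the mean or without a symbol were named after their values were seen.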

How the data were processed

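RNA of 6 mitral valve and 6 left ventricle samples was sequenced, per the labels from total RNA in TruSeq libraries. Tools named in the submitters' processing notes are cutadapt, Bowtie and TopHat, with no versions, and the genome build is CanFam3.1. Which program computed the gene values was not given in the sources used here. Per the file headers, the authors deposited one value per group and gene, read here as FPKM from the column layout. Their test statistic, also deposited by the authors, is treated as a score, and their deposited p-value carries no adjustment for multiple genes. The log2 fold change in the deposited table has control as its numerator, and was recomputed here as DMVD over control. The tables hold neither counts nor values per library, so no test was refitted to the data here. Apart from the scaled and centred settings, every p-value printed comes from the authors' own test. In those settings p-values were recalculated from the shifted log2 value and the authors' error. The log2 fold change was undefined for 333 tested genes with a group listed at 0, of which none passed.

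The standard error was the absolute log2 fold change over the statistic, with a median of 0.52 for genes of at least 5 FPKM in the mean and 1.11 for genes under 1 FPKM. Benjamini-Hochberg adjustment of those p-values ran over the 14810 tested genes, with a threshold of 0.05. They measure the authors' model error, which may be partly technical. Another 9413 listed genes were marked as not tested and were left out. Ventricle and valve tables may be normalised separately, so their values are set side by side without a test, and shares were taken within a group.

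The 56 gene lists held 1322 genes, of which 1028 had a row and 891 were tested. Lists are described by counts and medians, with no set test. Members, lists and tests were chosen with earlier results of these data known. Named genes were the 15 largest rises and falls among genes that passed, carry a symbol and reach a mean of 5 FPKM, the 10 largest of each outside ventricle-rich genes, the 4 or fewer lowest p-values in each list described, and 37 question genes. Members named beyond this rule were chosen after their values were seen. UniProt entry names were translated for 82 rows and left as listed for 726. Neighbouring genes came from RefSeq's UU_Cfam_GSD_1.0. No sequences are shown, and the values of 2 genes that this rule or the lists would name are not reported here. The alternatives were filters on low values, a threshold of 0.01, a minimum fold change, another adjustment, pseudocounts of 0.1 and 1 FPKM, other scalings, and removal of genes that share a locus. The number of columns from other samples was 0. The calculation was tested on simulated data. The software was matplotlib 3.10.9, scipy 1.17.1, pandas 2.3.3 and numpy 2.4.6 under Python 3.11.15.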

Additional observations from a re-analysis of the deposited data

How the results depend on the processing

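No paired analysis was possible because the tables hold one value per group, and for the same reason no library could be left out. The 62 calls (46 higher, 16 lower, 49 outside ventricle-rich genes) became 62 with a mean of at least 1 FPKM, 58 with at least 5 FPKM, 60 with a minimum 2-fold change and 64 without genes that share a locus. At a threshold of 0.01 there were 30 calls, 19 higher and 11 lower, with 21 outside ventricle-rich genes. Benjamini-Yekutieli adjustment left 15, 8 higher and 7 lower, with 9 outside. Centring on the median gave 57, 40 higher and 17 lower. Scaling to genes that are not ventricle-rich gave 51, 26 higher and 25 lower, with 32 outside, and 42 of them were among the 62. Leaving small RNAs out of that scaling, an alternative chosen after seeing the data, shifted log2 values by 0.10 and gave 56, 36 higher and 20 lower.

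No named gene that passed changed sign under any alternative run. Adding 1 FPKM moved 42 of 241 named log2 values by more than their standard error and adding 0.1 FPKM moved 2. Over the lists, medians changed sign on scaling for the atrial, glycolysis and hypoxia, basement membrane, small leucine-rich proteoglycan, metalloprotease, mineralisation, pericyte, Schwann cell, valve development, heat shock and ribosomal lists. These medians all lay between 0.01 and 0.21.

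Without mitochondrial and small RNA rows the sarcomere shares were 4.15% in DMVD valves, 7.88% in control valves, 9.88% in DMVD ventricles and 10.7% in control ventricles. In the same order the atrial shares were 1.13%, 1.05%, 0.0378% and 0.0250%, and the oxidative phosphorylation shares 0.908%, 1.62%, 2.87% and 3.61%. Over all rows the atrial shares were 0.744%, 0.614%, 0.0237% and 0.00737%, and without the list's most abundant member in each group (NPPA, MYL4 or PAM) they were 0.371%, 0.282%, 0.0137% and 0.00376%. Over all rows the oxidative phosphorylation share of the ventricles was 1.80% in DMVD and 1.06% in control, and without COX7B 1.03% and 0.602%. The median of genes at least 8-fold higher in ventricle went from -2.71 to -1.59 with a mean of at least 5 FPKM. With the ventricle set against the control valve alone, an alternative chosen after seeing the data, the medians at 4- to 8-fold and at 8-fold or more turned to 0.26 and 2.99, and against the DMVD valve alone they were -1.22 and -2.10. For these moves the cause was not tested. Depth is unknown, so the precision of low values rests on the authors' error alone.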

Other observations

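Genes of other cell types and processes were read in the same valve comparison. None of 26 interferon-stimulated genes passed, 22 had the higher DMVD value and the median was 0.45. CXCL10, an interferon-induced chemokine, had 4.60 FPKM in DMVD and 1.16 in control (1.99 ± 0.85). None of 24 cell cycle genes passed and the median was 0.38. TOP2A, a topoisomerase of dividing cells, had 0.634 against 0.127 FPKM (2.31 ± 1.18), and the cell cycle kinase CDK1 had 30.9 against 20.2 (0.61 ± 0.64). Of 18 cartilage genes none passed (median -0.14), and the secreted gene CYTL1 had 109 against 38.9 FPKM (1.48 ± 0.55). Of 9 mineralisation genes none passed, and TNFRSF11B, the osteoclast-restraining decoy receptor osteoprotegerin, had 26.6 against 8.40 FPKM (1.66 ± 0.50). The mineralisation median was 0.19, or -0.03 when scaled to genes that are not ventricle-rich. Of 5 tested mesothelial and epithelial markers none passed, with 3 higher and 2 lower in value. The mesothelial gene UPK1B had 2.38 against 0.0590 FPKM (5.34 ± 1.51), or 1.68 with 1 FPKM added. CALB2 of the same list lay the other way, with 0.887 against 3.22 FPKM (-1.86 ± 1.23).

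A further 33 growth factor genes held no call. The insulin-like growth factor binding genes IGFBP4 and IGFBP2 had 42.5 against 14.4 FPKM (1.56 ± 0.50) and 12.3 against 2.89 FPKM (2.09 ± 0.69), while EGF had 4.61 against 11.2 (-1.29 ± 0.52). Small RNA rows gave 3 rises: SNORD49 had 6397 against 89.9 FPKM (6.15 ± 1.65), a Y RNA row 1432 against 36.2 (5.31 ± 1.32) and a 5.8S ribosomal RNA row 1504 against 90.7 (4.05 ± 0.91). The SNORD49 row missed the threshold when scaled. Rows without a symbol also rose in a chemokine interval of chromosome 9 between CCL3 and CCL14, with 171 against 39.1 FPKM (2.13 ± 0.55) and 71.9 against 16.4 (2.14 ± 0.57), and both missed the threshold when scaled.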
